A study of Homo sapiens with 18 samples.

Results

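The genes described here are 10 secreted immune messengers that senescent and damaged epithelial cells are known to release: the interleukins IL1A, IL1B and IL6, the interleukin-1 receptor antagonist IL1RN, and the chemokines CXCL1, CXCL2, CXCL3, CXCL5, CXCL8 and CCL20. They were taken by symbol, and each was found once among the 40916 gene symbols of every count table. Poly(A)-selected RNA was sequenced in 18 libraries, in 6 groups of 3 biological replicates. The purpose of the series was to compare both cell lines alone and mixed, with and without a dose of ionizing radiation. MCF10A, an immortalized non-tumour human mammary epithelial line that carried an H2B-GFP label here, was grown alone without irradiation (MCF10A NIR) or after 10 Gy (MCF10A IR). HCT116, a human colorectal carcinoma line used here as unlabelled p53-null cells, was grown alone without irradiation (HCT116 NIR) or after 10 Gy (HCT116 IR). Both lines were grown together as a mixture described as 50% of each, again without irradiation (Mixed NIR) or after 10 Gy (Mixed IR). The sample titles place the harvest on day 2, and the series text places it 72 h after irradiation. MCF10A was fed a horse serum medium with EGF, hydrocortisone, cholera toxin and insulin, and HCT116 a McCoy's medium with fetal bovine serum. The medium of the mixture is not given in the sources used here. Each line is 1 cultured line, so the line, its p53 genotype and its medium cannot be told apart in any comparison between lines.

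Interleukin-1 alpha and interleukin-1 beta bind the same receptor, IL1R1 with IL1RAP, and signal through MYD88 and IRAK kinases to NF-kappaB. IL1RN binds that receptor without activating it. NF-kappaB, often together with C/EBP and AP-1 factors, is a textbook activator of IL6 and of the chemokine genes. CXCL1, CXCL2, CXCL3, CXCL5 and CXCL8 draw neutrophils through the receptor CXCR2 (CXCL8 also through CXCR1), and CCL20 draws cells that carry CCR6. This set of genes is the best known part of the senescence-associated secretory phenotype, in which interleukin-1 alpha acts early and IL6 and CXCL8 are standard markers.

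In the RefSeq annotation of GRCh38.p14 all 10 are protein-coding genes on 3 chromosomes. IL1A (chr2:112773925-112784493), IL1B (chr2:112829751-112836779) and IL1RN (chr2:113099360-113134014) lie close together on chromosome 2, and CCL20 (chr2:227813842-227817556) lies far from them on the same chromosome. CXCL8 (chr4:73740569-73743716), CXCL1 (chr4:73869393-73871308), CXCL5 (chr4:73995642-73998677), CXCL3 (chr4:74036589-74038689) and CXCL2 (chr4:74097040-74099195) form a cluster on chromosome 4. IL6 (chr7:22727200-22731998) is on chromosome 7.

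The stretches just before the start of transcription show how alike the chemokine members are and what they share with IL6. Each line gives 120 bases of RefSeq sequence (GRCh38.p14), 5′ to 3′ on the strand of the gene, ending at the base before the annotated start. Capitals mark the letters GGANNTTCC, an NF-kappaB motif.
CXCL1: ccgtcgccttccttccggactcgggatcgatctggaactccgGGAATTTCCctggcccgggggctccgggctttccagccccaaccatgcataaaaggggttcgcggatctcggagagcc
CXCL3: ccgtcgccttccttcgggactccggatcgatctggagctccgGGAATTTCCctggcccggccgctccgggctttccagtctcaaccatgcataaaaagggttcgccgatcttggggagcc
CXCL2: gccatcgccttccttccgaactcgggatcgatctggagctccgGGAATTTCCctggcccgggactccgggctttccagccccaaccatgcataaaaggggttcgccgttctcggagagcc
CXCL8: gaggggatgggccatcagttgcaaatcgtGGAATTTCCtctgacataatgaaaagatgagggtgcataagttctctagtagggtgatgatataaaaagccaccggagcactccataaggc
CXCL5: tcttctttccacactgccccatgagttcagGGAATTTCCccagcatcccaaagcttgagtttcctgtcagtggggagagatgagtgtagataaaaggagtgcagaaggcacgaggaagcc
IL6: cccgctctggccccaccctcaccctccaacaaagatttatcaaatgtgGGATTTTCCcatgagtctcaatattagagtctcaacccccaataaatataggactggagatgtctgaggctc
These are chr4:73869273-73869392 (plus strand) for CXCL1, chr4:74038690-74038809 (minus strand) for CXCL3, chr4:74099196-74099315 (minus strand) for CXCL2, chr4:73740449-73740568 (plus strand) for CXCL8, chr4:73998678-73998797 (minus strand) for CXCL5 and chr7:22727080-22727199 (plus strand) for IL6. Set base against base from the start without gaps, CXCL1 and CXCL3 had the same base at 109 of the 120 positions. CXCL1 and CXCL2 matched at 81 positions, and CXCL8 matched CXCL1 at 38. The motif lies closer to the start in CXCL2 than in CXCL1, so it and the bases before it were compared out of step. The count of 81 therefore understates how alike CXCL1 and CXCL2 are.

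The search for motifs covered both strands of the 250 bases before each start in the RefSeq promoter table, which gives several for IL1A and IL1RN. The outermost IL1RN start, at the coordinate above, is not among the windows searched. The motifs were GGANNTTCC for NF-kappaB, TGANTCA for AP-1 and TTGCNNAA for C/EBP. GGANNTTCC was present in 6 of the 10 genes, those printed above, against 3.84% of 35116 RefSeq promoters of the same length. In all 5 CXC chemokine genes the letters were GGAATTTCC, at 91 to 83 bases before the start in CXCL8, 90 to 82 in CXCL5, 78 to 70 in CXCL1 and CXCL3, and 77 to 69 in CXCL2. IL6 had GGATTTTCC at 72 to 64 bases before its start. TGANTCA was present in IL1A, IL1RN and CXCL8, against 6.57% of all promoters, and TTGCNNAA in IL1B, CXCL2 and IL6, against 9.05%. These shares are per promoter, whereas IL1A and IL1RN were counted if any of their starts had a match. The promoters of CXCL1, CXCL2 and CXCL3 are much alike, so their matches may not be separate occurrences. None of the matches of different motifs overlapped. CCL20 held none of these 3 letter patterns in this window. Other forms of the motifs were not searched for, so CCL20 may still hold an NF-kappaB site of other letters. A match describes letters in the sequence and is not a measurement of binding.

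Levels are given as CPM, a gene's counts divided by the total of its library and multiplied by 1e+06. The totals lay between 25737818 and 40839835 counts. Before irradiation, 7 of the 10 genes were above 20 CPM in every MCF10A library and under 6 CPM in every HCT116 library. Both limits were met by 0.713% of the 30736 genes with counts in any library. Of the 7377 genes above 20 CPM in every MCF10A NIR library, 2.97% were under 6 CPM in every HCT116 NIR library. The limits lie near values of the members, CXCL3 at 24.6 CPM in MCF10A NIR replicate 1 and CXCL8 at 5.79 CPM in HCT116 NIR replicate 3. The count of 7 is therefore a description and not a test. Per kilobase of exon, which allows genes to be compared, CXCL1 (224 CPM per kb) and IL1A (201) stood highest in MCF10A NIR, then IL1B (101), CXCL8 (57.5), CCL20 (37.1), CXCL2 (24.2) and CXCL3 (11.8). IL6 was far lower, at 1.19 CPM per kb, and IL1RN and CXCL5 were lowest at 0.0424 and 0.0633. In HCT116 NIR the highest per kilobase was CXCL8 at 2.37, followed by CXCL1 at 0.781.

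**Figure D1:**
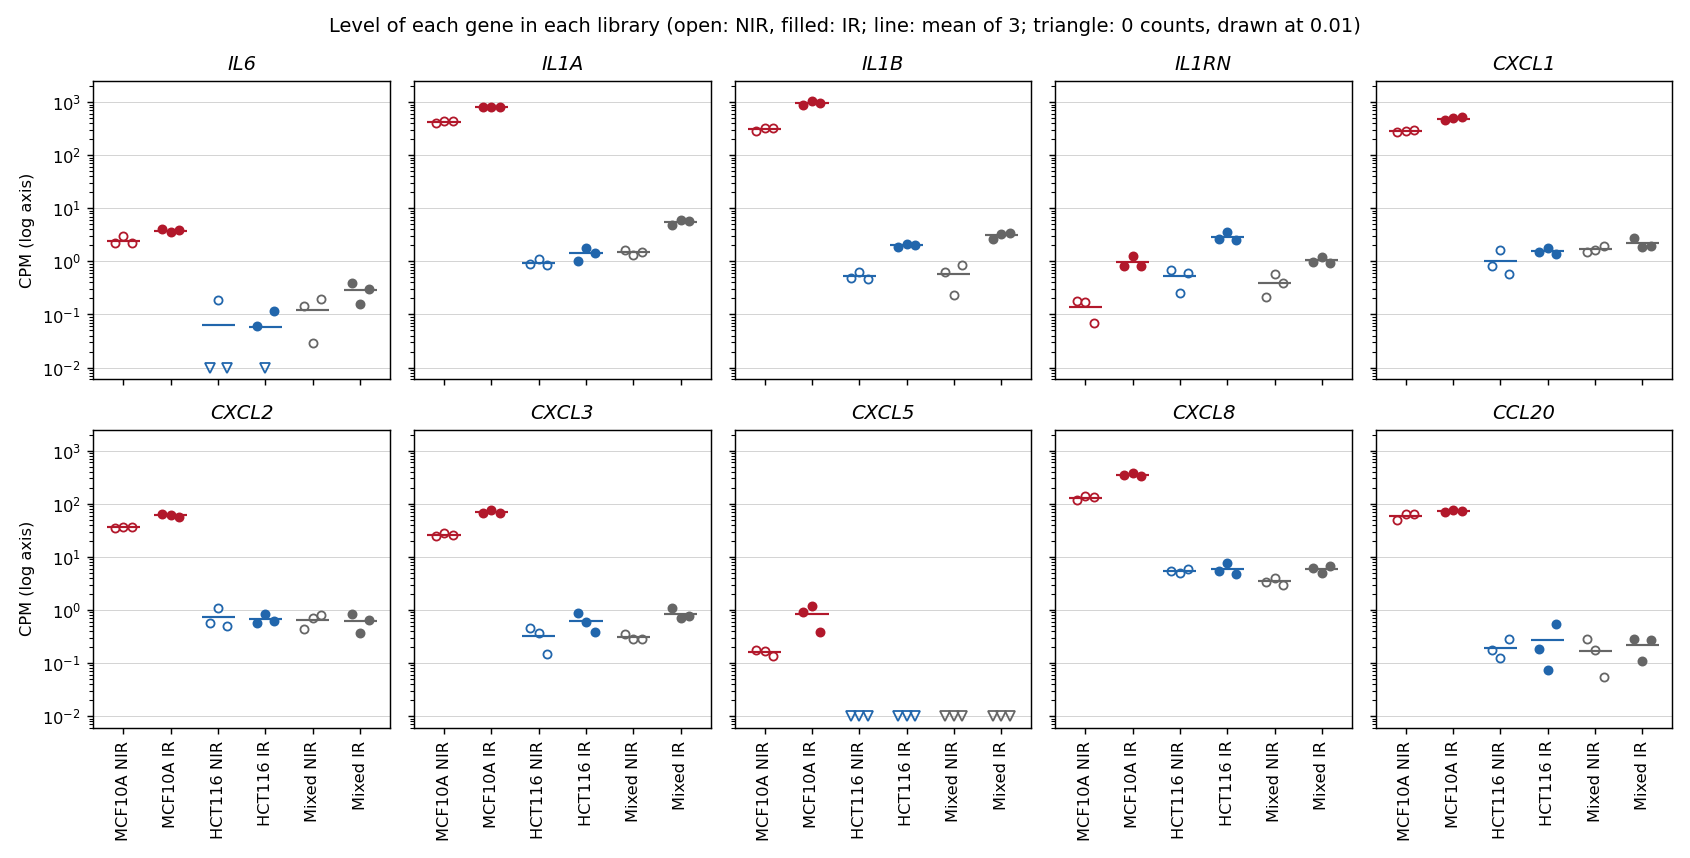
Level of each of the 10 genes in every library, in CPM on a log axis. Columns are the 6 groups, open symbols NIR and filled symbols IR libraries, lines the mean of 3 libraries, and triangles libraries with 0 counts, drawn at 0.01. For 9 of the 10 genes the MCF10A IR libraries were the highest, and for IL1RN the HCT116 IR libraries were. The share of all genes with either order was not counted, so this describes the levels only.

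In the unirradiated lines, IL1A was at 397, 440 and 442 CPM in the MCF10A libraries and at 0.897, 1.09 and 0.869 CPM in the HCT116 libraries. IL1B was at 288, 324 and 326 CPM against 0.492, 0.622 and 0.471 CPM. CXCL1 was at 275, 291 and 304 CPM against 0.810, 1.65 and 0.579 CPM. The groups were far apart for these 3 genes, with every MCF10A library above every HCT116 library. The log2 difference, HCT116 minus MCF10A, was -8.997 for IL1A (SE 0.0968, adjusted p = 5.2e-21) and -9.39 for IL1B (SE 0.109, adjusted p = 1.1e-20). Adjusted p-values here and below are those of edgeR's quasi-likelihood test with Benjamini-Hochberg adjustment over all genes tested.

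Of the 8 members tested between the unirradiated lines, 8 were lower in HCT116. In that comparison 36.1% of the 16568 genes tested were called lower and 74.8% were called in either direction, so a call by itself sets no gene apart here. Of all calls 51.8% were higher in HCT116, and 62.4% with upper-quartile scaling, which kept the 8 members lower. IL6 and CCL20 passed the filter on low counts only through their MCF10A level. Over the 6 other members the median log2 difference was -7.40, beside -0.013 over the 14473 genes that reached the filter level in both lines. The narrowest gap among the 8 was that of CXCL8, the neutrophil chemokine, at 120, 138 and 135 CPM in MCF10A and 5.32, 5.03 and 5.79 CPM in HCT116 (log2 difference -4.81, SE 0.0884, adjusted p = 3.2e-18). IL6 differed by -5.39 (SE 0.649, adjusted p = 6.8e-07), CXCL2 by -5.83, CXCL3 by -6.46, CXCL1 by -8.34 and CCL20 by -8.44. IL6 rested on 6 counts in HCT116 NIR, all of them in replicate 2, and the 2 other HCT116 NIR libraries were at 0.

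IL1RN and CXCL5 were too low in both unirradiated lines to be tested. IL1RN, the antagonist, ran the other way from the ligands, at 0.176, 0.169 and 0.0683 CPM in MCF10A and 0.694, 0.249 and 0.615 CPM in HCT116, without overlap. CXCL5 was at 0.176, 0.169 and 0.137 CPM in MCF10A and had 0 counts in all 3 HCT116 libraries. Against a floor of 3 counts over the HCT116 group, MCF10A was at least 5.09-fold higher, or at least 2.55-fold with counts halved. The halved value is given because 68.3% of the counts from 1 to 10 were even, and the bound covers counting error only.

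Both lines were checked against their defining markers. TP63 and KRT5, markers of basal mammary cells, were at 104 to 115 CPM and 2729 to 2962 CPM in MCF10A NIR, and at 0 and 0 to 0.289 CPM in HCT116 NIR. CDX2, an intestinal factor, was at 9.03 to 11.3 CPM in HCT116 NIR and at 0 in all MCF10A libraries, while CDX1, VIL1 and CDH17 were under 1 CPM in every HCT116 library. HCT116 NIR libraries held 0.223% of the MCF10A level of IL1A and 0.169% of that of IL1B. The same ratio was 0.00406% for KRT5 and 0 for TP63, so the IL1A and IL1B counts of HCT116 NIR were above what these 2 markers showed of MCF10A RNA in those libraries.

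Irradiation raised all 10 genes in MCF10A, from 1.22-fold (CCL20) to 6.62-fold (IL1RN). In that comparison 26.2% of the 15154 genes tested were called higher and 55.4% in either direction. Of all calls 47.4% were higher, and 57.5% with upper-quartile scaling, under which the 10 members were still called higher. IL1RN and CXCL5 passed the filter through their IR libraries only, so the 8 other members are the ones free to move either way. Over those 8 the median log2 difference was 0.83, beside -0.0057 over the 14881 genes that reached the filter level in both groups.

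Among the ligands of the interleukin-1 receptor, IL1B went from 288, 324 and 326 CPM to 893, 1039 and 949 CPM. IL1A went from 397, 440 and 442 CPM to 810, 817 and 822 CPM. The groups did not overlap for either gene, and the irradiated libraries lay close together for IL1A. The log2 rise was 1.60 for IL1B (SE 0.0519, adjusted p = 7.3e-20) and 0.92 for IL1A (SE 0.0424, adjusted p = 1.5e-16). Per kilobase IL1A then stood at 384 CPM, CXCL1 at 380 and IL1B at 310.

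IL1RN, which competes with both ligands, went from 0.176, 0.169 and 0.0683 CPM to 0.808, 1.28 and 0.823 CPM in MCF10A (log2 difference 2.73, SE 0.575, adjusted p = 0.0002). It had the largest log2 rise of the 10 and, after IR, the lowest level per kilobase, at 0.298 CPM. IL6, the ligand of the IL6R and IL6ST receptor pair, went from 2.21, 2.99 and 2.19 CPM to 4.04, 3.54 and 3.85 CPM. The groups did not overlap, and the log2 rise was 0.60 (SE 0.222, adjusted p = 0.023). This call was the least stable of the 10: it was lost in 4 of the 6 fits that left out 1 library (adjusted p 0.059 to 0.073) and in the fit of all 18 libraries (adjusted p = 0.28). IL6 also overlaps STEAP1B, which runs on the opposite strand, and the strand setting of the counting is not given in the sources used here.

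Among the neutrophil chemokines, CXCL8 went from 120, 138 and 135 CPM to 349, 383 and 335 CPM in MCF10A. CXCL3 went from 24.6, 28.1 and 25.8 CPM to 68.0, 75.1 and 67.0 CPM. CXCL1 went from 275, 291 and 304 CPM to 468, 493 and 515 CPM. In all 3 the lowest irradiated library was above the highest unirradiated one. CXCL8 rose by 1.42 on the log2 scale (SE 0.0540, adjusted p = 1.8e-18), CXCL3 by 1.40 (SE 0.0716, adjusted p = 1.3e-15) and CXCL1 by 0.74 (SE 0.0449, adjusted p = 5e-14). CXCL3 thus rose by about as much as CXCL8, while CXCL1, with which it shares most of the printed promoter bases, rose by 0.74. The rise of CXCL2 was near that of CXCL1, from 35.2, 37.2 and 36.5 CPM to 63.2, 61.9 and 57.0 CPM (log2 difference 0.72, SE 0.0656, adjusted p = 2.6e-10). The transcripts of CXCL1, CXCL2 and CXCL3 shared no stretch of 100 bases with any other gene, and 3.02% to 9.24% of their 50-base stretches were shared among the 3.

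CXCL5 went from 0.176, 0.169 and 0.137 CPM to 0.919, 1.17 and 0.382 CPM in MCF10A (log2 difference 2.28, SE 0.598, adjusted p = 0.0019), from 16 counts to 70 over the 3 libraries. With counts halved CXCL5 was under the filter and not tested, and 9 members were called, where 8282 of 13719 genes were. CCL20 moved least, from 49.5, 63.1 and 64.9 CPM to 70.8, 76.5 and 72.0 CPM. Its lowest unirradiated library stood apart from the other two, and the log2 rise was 0.28 (SE 0.0745, adjusted p = 0.0019). Without that library, MCF10A NIR replicate 1, the rise was 0.17 (adjusted p = 0.029). In the fit of all 18 libraries the CCL20 value was 0.28 with an adjusted p of 0.067.

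**Figure D2:**
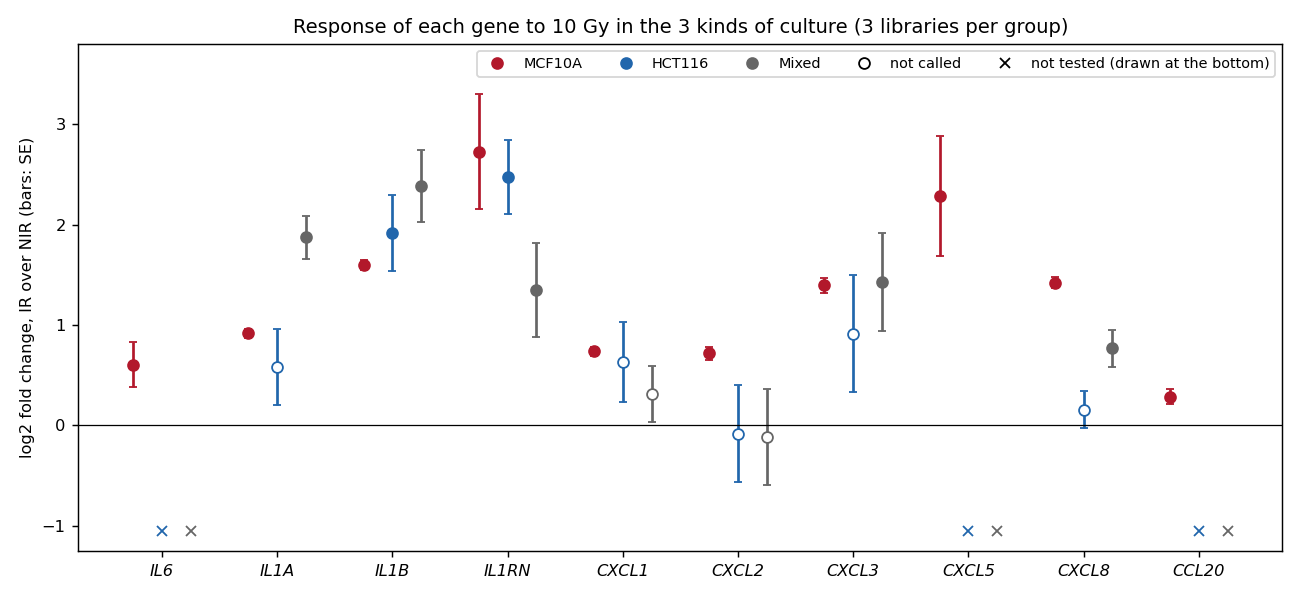
Log2 fold change of each gene after 10 Gy in MCF10A, HCT116 and mixed cultures, from 3 against 3 libraries, with bars of 1 SE. Filled points passed an adjusted p of 0.05, open points did not, and crosses at the bottom mark genes that were not tested. All 10 MCF10A points are filled, with 2 of 7 in HCT116 and 5 of 7 in mixed cultures.

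In HCT116 irradiation raised IL1B and IL1RN, 2 of the 7 members tested, where 25.3% of 16857 genes were called higher and 52.5% in either direction. IL1B went from 0.492, 0.622 and 0.471 CPM to 1.83, 2.13 and 2.02 CPM (log2 difference 1.92, SE 0.376, adjusted p = 0.00016). IL1RN went from 0.694, 0.249 and 0.615 CPM to 2.62, 3.53 and 2.49 CPM (log2 difference 2.48, SE 0.371, adjusted p = 5.6e-06). Neither gene overlapped between the groups, and after 10 Gy HCT116 held the highest IL1RN of the 6 groups. The ratio of means was 0.337 for MCF10A IR over HCT116 IR in IL1RN, and 482 in IL1B. The 10 basal mammary markers summed to 742 to 886 CPM in HCT116 NIR and 1365 to 1583 CPM in HCT116 IR, most of it CAV1 and ITGB4, which both lines express. Without IR and after it, HCT116 held 0.00406% and 0.0553% of the MCF10A level of KRT5, 0 and 0.0249% of that of TP63, and 0.0620% and 0.193% of that of KRT14. IL1B in HCT116 was at 0.169% and 0.207% of the MCF10A level, above these 3 markers in both conditions and below COL17A1, S100A2, CAV1 and ITGB4. The part of these markers in the IL1B rise was not tested.

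The other members tested in HCT116 were not called. CXCL8 was at 5.32, 5.03 and 5.79 CPM without IR and 5.33, 7.59 and 4.82 CPM after it. These ranges overlapped, and the log2 difference was 0.16 with a 95% interval of -0.21 to 0.52 (edgeR, adjusted p = 0.5). CXCL1 had a difference of 0.63 (interval -0.14 to 1.40), CXCL3 of 0.91 (-0.23 to 2.06), IL1A of 0.58 (-0.17 to 1.33) and CXCL2 of -0.08 (-1.04 to 0.87). HCT116 NIR replicate 2 was the highest of its group for CXCL1, at 1.65 CPM against 0.810 and 0.579. Without it the CXCL1 difference was 1.16 (edgeR, adjusted p = 0.035) and 3 members were called, where 8003 of 17510 genes were. In the fit of all 18 libraries, which takes its spread from every group, 5 members were called, with IL1A (0.61, adjusted p = 0.0092), CXCL1 (0.65, adjusted p = 0.023) and CXCL3 (0.92, adjusted p = 0.025) added. Over all genes, 8976 of 18890 were called in that fit. IL6, CXCL5 and CCL20 were under the filter: IL6 had 6 counts over the NIR libraries and 5 over the IR libraries, CCL20 18 and 23, and CXCL5 none. A count of 0 allows up to 3 counts over the group.

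The difference between the responses of both lines was tested for 9 members, and 2 passed, both lower in HCT116. Of 18179 genes, 21.9% were called with a smaller or more negative response in HCT116 and 37.3% in either direction. That balance was not stable: 41.3% of all calls were higher in HCT116, but 51.8% in the fit of all 18 libraries, 51.9% with no filter, and 52.8% to 53.9% without any 1 of the MCF10A IR libraries or HCT116 IR replicate 2. For CXCL8 the HCT116 response was lower by 1.32 on the log2 scale (difference -1.32, SE 0.156, adjusted p = 2.2e-07), and this lay between -1.46 and -1.15 whichever library was left out. For CXCL2 the difference was -0.86 (SE 0.284, adjusted p = 0.018). That call was lost in 4 of the 12 fits without 1 library, down to -0.45 (adjusted p = 0.29) without HCT116 NIR replicate 2, and in the fit of all 18 libraries (-0.77, adjusted p = 0.056). The responses of IL1B and IL1RN were not shown to differ between the lines, at 0.24 (interval -0.19 to 0.68) and -0.33 (-1.61 to 0.95), nor was that of IL1A, at -0.40 (-0.80 to 0.0030). IL6 and CCL20 entered this test through their MCF10A level, and IL1RN was under the filter level in all MCF10A NIR libraries. Over the 6 other members the median difference was -0.48, beside -0.061 over the 14110 genes that reached the level in all 4 groups. This comparison uses the same libraries as the responses of each line, so its values are not independent of them.

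The mixed cultures held little MCF10A RNA. From genes specific to each line, MCF10A gave 0.447% ± 0.0515 (SD, n = 3) of the counted RNA in Mixed NIR and 1.25% ± 0.0565 (SD, n = 3) in Mixed IR, against a described 50% of cells. With other limits for specific genes the shares were 0.214% and 0.914%. In bulk RNA, fewer MCF10A cells and less RNA per MCF10A cell cannot be told apart. TP63 was at 0.667 to 1.29 CPM in Mixed NIR and 1.55 to 2.38 CPM in Mixed IR, above the 0 and 0.0979 CPM that were the highest values of the HCT116 monocultures. The basal markers differed widely in how much of their MCF10A level the mixture held. In Mixed NIR and Mixed IR this was 0.810% and 1.51% for TP63 and 0.563% and 1.43% for KRT17, above the estimated shares, but 0.127% and 0.353% for KRT14, 0.0951% and 0.494% for KRT6A, and 0.0251% and 0.0976% for KRT5, below them.

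In the mixed cultures irradiation raised 5 of the 7 members tested, where 24.0% of 16906 genes were called higher and 49.4% in either direction. IL1A went from 1.65, 1.30 and 1.47 CPM to 4.76, 5.91 and 5.77 CPM (log2 difference 1.87, SE 0.213, adjusted p = 2.5e-07). IL1B went from 0.644, 0.231 and 0.862 CPM to 2.66, 3.26 and 3.37 CPM (log2 difference 2.39, SE 0.358, adjusted p = 9.9e-06). CXCL8 went from 3.40, 3.98 and 2.97 CPM to 6.29, 5.02 and 6.65 CPM (log2 difference 0.77, SE 0.185, adjusted p = 0.0016). The IR libraries were above the NIR libraries without overlap in all 3 genes. The share of MCF10A RNA was also higher in every Mixed IR library (1.19% to 1.29%) than in every Mixed NIR library (0.399% to 0.501%), and its part in these rises was not tested.

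IL1RN rose in the mixed cultures from 0.215, 0.577 and 0.389 CPM to 0.964, 1.23 and 0.938 CPM (log2 difference 1.35, SE 0.468, adjusted p = 0.021). CXCL3 rose from 0.358, 0.288 and 0.278 CPM to 1.08, 0.695 and 0.773 CPM (log2 difference 1.43, SE 0.489, adjusted p = 0.019). Both calls depended on single libraries: each was lost in 3 of the 6 fits that left out 1 library, and without Mixed NIR replicate 3 both were lost and 3 members were called. Without that library 7990 of 17578 genes were called. CXCL1 (0.32, interval -0.23 to 0.86) and CXCL2 (-0.12, interval -1.06 to 0.83) were not called. IL6 was not tested in the mixed cultures, at 0.143, 0.0288 and 0.195 CPM without IR and 0.397, 0.160 and 0.304 CPM after it, which overlap. CCL20 stayed under 0.3 CPM in every mixed library, and CXCL5 had 0 counts in all 6.

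Further comparisons set the mixture against HCT116, the line that gave most of its RNA, and reuse the libraries of the responses above. The irradiated mixture differed from irradiated HCT116 in 2 of the 7 members tested, where 8.56% of 17137 genes were called, 5.08% higher and 3.48% lower. Of all calls 59.4% were higher, and 80.5% in the fit of all 18 libraries. IL1A was higher in Mixed IR, at 4.76, 5.91 and 5.77 CPM against 1.04, 1.76 and 1.44 CPM in HCT116 IR (log2 difference 1.93, SE 0.225, adjusted p = 3.6e-07). IL1RN was lower in Mixed IR, at 0.964, 1.23 and 0.938 CPM against 2.62, 3.53 and 2.49 CPM (log2 difference -1.48, SE 0.289, adjusted p = 0.00093). Neither gene overlapped between the groups. Mixed IR also held an estimated 1.25% of MCF10A RNA, and that share of the MCF10A IR level of IL1A was 10.2 CPM. The part of MCF10A RNA in these differences was not tested. Both calls held in each of the 6 fits without 1 library, at 1.75 to 2.15 for IL1A and -1.61 to -1.30 for IL1RN. IL1B had a difference of 0.62 (interval 0.16 to 1.09, adjusted p = 0.11), and in the fit of all 18 libraries it was called at 0.65 (adjusted p = 0.0095). CXCL8 was at 5.91 ± 1.48 CPM in HCT116 IR and 5.99 ± 0.855 CPM in Mixed IR (mean ± SD, n = 3), with an interval of -0.35 to 0.33 for the log2 difference.

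Without irradiation the mixture and HCT116 differed in 0 of 7 members by edgeR and in 0 by DESeq2, where 2.04% of 16455 genes were called. CXCL8 was the 1 member with an unadjusted p under 0.05 (adjusted p = 0.1, edgeR). It was at 5.32, 5.03 and 5.79 CPM in HCT116 NIR and at 3.40, 3.98 and 2.97 CPM in Mixed NIR, lower in all 3 mixed libraries (log2 difference -0.63, interval -0.996 to -0.25). The fit of all 18 libraries called it (-0.61, adjusted p = 0.017). The difference between the responses of the mixture and of HCT116 was called for 0 of 7 members by edgeR, with 0.830% of 18072 genes called. IL1A (1.30, interval 0.58 to 2.01, adjusted p = 0.096) and CXCL8 (0.62, interval 0.11 to 1.14, adjusted p = 0.31) were the 2 members with an unadjusted p under 0.05. DESeq2 called IL1A (1.28, adjusted p = 0.044), as did the fit of all 18 libraries (1.31, adjusted p = 0.0039).

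Each mixed level was also set beside a weighted sum of the monocultures of the same treatment, with the MCF10A share as weight and the range taken over all combinations of libraries and shares. After IR, 8 of the 9 members with counts were below that range in all 3 mixed libraries, beside 8.94% of 26976 genes. Of the 251 genes above 20 CPM in every MCF10A IR library and under 6 CPM in every HCT116 IR library, 35.1% were below their range and 19.9% above it, while all 6 members within these limits were below. Many of those 251 genes also set the share estimate. IL1B had a mean of 3.10 CPM against a sum of 14.0 CPM (range 12.4 to 15.5), CXCL1 2.17 against 7.68 (6.92 to 8.42), IL1A 5.48 against 11.6 (10.6 to 12.4) and CCL20 0.222 against 1.18 (0.912 to 1.53). IL1RN, for which the MCF10A part of the sum was 0.0121 CPM, was at 1.04 against 2.85 CPM (2.46 to 3.50). CXCL8 was at 5.99 against 10.3 CPM (8.73 to 12.5). IL6 was the exception among the members with counts, at 0.287 against 0.106 CPM, with overlapping ranges. With the other limits for specific genes CXCL3 overlapped its range, and IL6 was above its range.

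Without IR, 4 of 9 members were below the range of the weighted sum, beside 8.94% of 26019 genes and 30.6% of the 219 genes within the same limits on the NIR libraries. They were IL1A (1.47 against 2.85 CPM), IL1B (0.579 against 1.92), CXCL8 (3.45 against 5.94) and CCL20 (0.172 against 0.459). With the other limits for specific genes 1 of them, CXCL8, was below it, as were 12.8% of the 219 genes, so the first count rests on the share estimate. These sums have no test, since the share of RNA is an estimate from other genes of the same libraries, and a line may hold other levels in the mixture than alone.

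**Figure D3:**
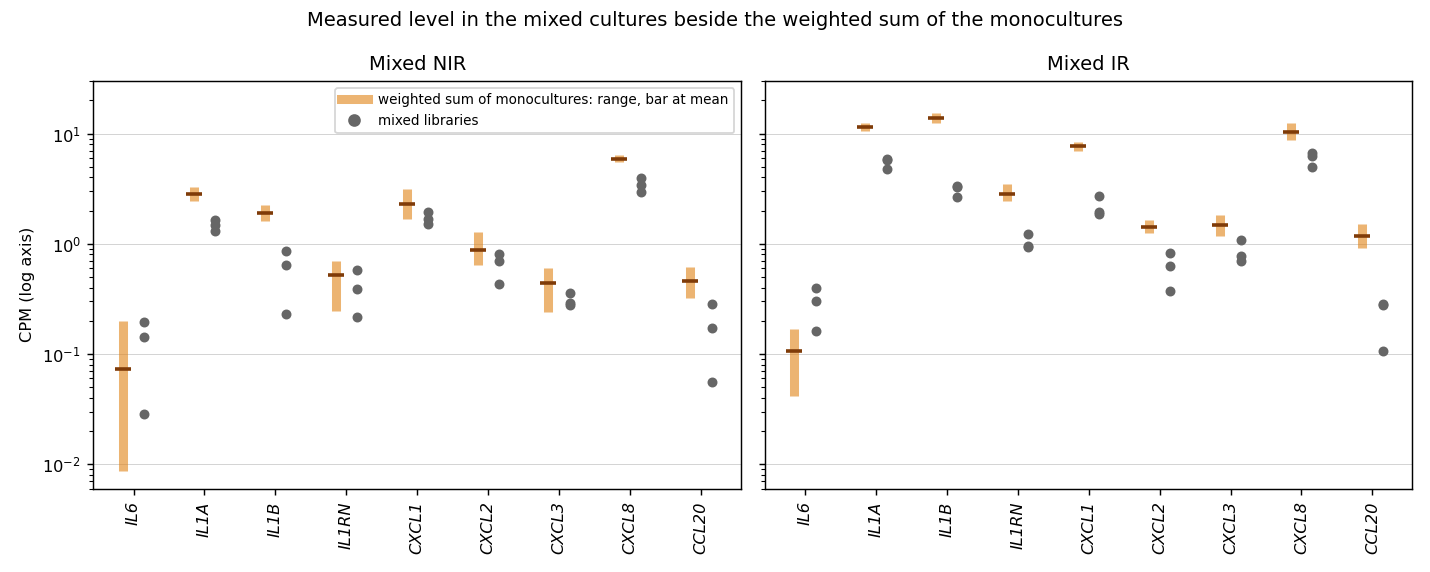
Measured CPM of 9 genes in the 3 mixed libraries (points) beside the weighted sum of the monocultures (orange bar: range over all combinations of libraries and shares; dark line: value at the mean), on a log axis, without IR and with IR. CXCL5 is left out because it had 0 counts in every mixed library. With IR the points of 8 genes lie below the bars, and those of IL6 overlap its bar.

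Markers of cell types other than these epithelia were also read. PTPRC, the pan-leukocyte antigen, was at most 0.217 CPM in any library, and TYROBP was at 0 in every monoculture library. The summed level of the 10 leukocyte markers was 5.81 to 6.23 CPM in MCF10A NIR and 8.82 to 10.2 CPM in MCF10A IR, with LYZ and TYROBP at 0 in both. It was 1.70 to 2.20 CPM in HCT116 NIR and 4.38 to 6.57 CPM in HCT116 IR, with CD3E and TYROBP at 0. CSF1R (2.04 and 4.38 CPM in NIR and IR) and ITGAM (0.119 and 1.10 CPM) made up most of that difference in MCF10A, and ITGAM (0.690 and 3.06 CPM) most of it in HCT116. The 7 fibroblast markers summed to 121 to 133 CPM in MCF10A NIR and 248 to 262 CPM in MCF10A IR, with COL3A1 at 0 in both, and to 39.2 to 47.4 CPM in HCT116 NIR and 29.2 to 32.5 CPM in HCT116 IR. The 4 endothelial markers stayed at 1.33 to 3.44 CPM in all libraries. The part of these markers in the rises of the 10 genes was not tested. The share of mitochondrial counts was 5.10% to 5.32% in MCF10A NIR and 6.06% to 6.35% in MCF10A IR, and 8.42% to 8.75% in HCT116 NIR and 11.5% to 12.3% in HCT116 IR.

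The wider pathway was described with 76 related genes in 8 lists, which hold the other interleukin-1 and interleukin-6 family members, their receptors, other chemokines and cytokines, and regulators. In MCF10A 28 of the 53 tested rose and 10 fell, where 26.2% of all genes tested were called higher and 29.2% lower. In HCT116 14 of 45 rose and 16 fell, where 25.3% of all genes were called higher and 27.2% lower, shares near those of the list. In mixed cultures 17 of 50 rose and 10 fell, where 24.0% of all genes were called higher and 25.4% lower. Over the related genes that reached the filter level in both groups the median log2 difference was 0.28 in MCF10A (51 genes), 0.0051 in HCT116 (42) and 0.13 in mixed cultures (46), beside -0.0057, 0.0037 and 0.0067 over all genes that did.

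In MCF10A the 3 other interleukin-1 family members tested, IL18, IL33 and IL36G, rose. IL36G, an epithelial alarmin, went from 0.289 ± 0.156 CPM to 2.30 ± 0.634 CPM (mean ± SD, n = 3, log2 difference 2.97, edgeR adjusted p = 1.6e-06). CSF2, the growth factor GM-CSF, went from 0.375 ± 0.148 CPM to 3.06 ± 0.508 CPM (2.96, adjusted p = 7.1e-08), and CXCL14, a chemokine of epithelia, from 0.405 ± 0.218 CPM to 2.10 ± 0.370 CPM (2.35, adjusted p = 2.1e-05). Of the cytokines in the list, 6 of 10 tested rose and 2 fell, IL7 (-0.70) and CSF1 (-0.67). The largest fall among the related genes of MCF10A was that of CEBPD, a C/EBP factor, from 30.9 ± 2.60 CPM to 15.6 ± 2.02 CPM (-1.003, adjusted p = 9.9e-10). Among the 11 NF-kappaB, C/EBP and AP-1 regulators 4 rose (NFKB2, RELA, NFKBIZ and TNFAIP3) and 3 fell (NFKB1, NFKBIA and CEBPD), so the list had no common direction. Of the interleukin-6 family and its receptors 6 of 9 rose and none fell, with IL11 (1.71) and LIF (1.199) the farthest.

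In HCT116 the related genes that moved farthest included receptors and their signalling partners. CXCR2, a receptor of the CXC chemokines among the members, went from 0.114 ± 0.109 CPM to 1.59 ± 0.132 CPM (log2 difference 3.84, edgeR adjusted p = 1.9e-05). It passed the filter through its IR libraries only, so it could appear here only as a rise. IRAK2, a kinase of the interleukin-1 receptor, went from 4.95 ± 0.610 CPM to 16.1 ± 1.48 CPM (1.71, adjusted p = 3.7e-10), and CXCL17, a mucosal chemokine, rose by 1.93 (adjusted p = 0.001). IL1RAP, the second chain of the interleukin-1 receptor, fell by 1.18 on the log2 scale, and IL1R1 fell by 0.96. SOCS3, the feedback inhibitor of interleukin-6 signalling, went from 18.6 ± 1.47 CPM to 6.44 ± 0.598 CPM (-1.52, adjusted p = 5.8e-10), and LIFR fell by 1.30. Of the 5 regulators of cytokine mRNA decay and stability, 4 fell in HCT116, ZFP36 (-0.99), ZFP36L1 (-0.16), ZFP36L2 (-0.43) and ELAVL1 (-0.28). In MCF10A 2 of them rose and 2 fell, ZC3H12A (-0.19) and ELAVL1 (-0.51). Tested between the lines, the response of 3 of the 5 was called lower in HCT116.

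In the mixed cultures CXCL17, IRAK2, SOCS3 and LIFR were again among the related genes that moved farthest. CXCL17 rose by 1.501 (edgeR, adjusted p = 0.0044), IRAK2 by 1.39 (adjusted p = 2.2e-09) and CCL5 by 1.21 (adjusted p = 0.0057). SOCS3 fell by 1.03, LIFR by 1.03 and NFKBIZ, an NF-kappaB cofactor, by 0.76. MYD88, the adaptor of the interleukin-1 receptor, rose in all 3 kinds of culture, by 0.58 in MCF10A, 1.07 in HCT116 and 0.68 in mixed cultures.

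**Figure D4:**
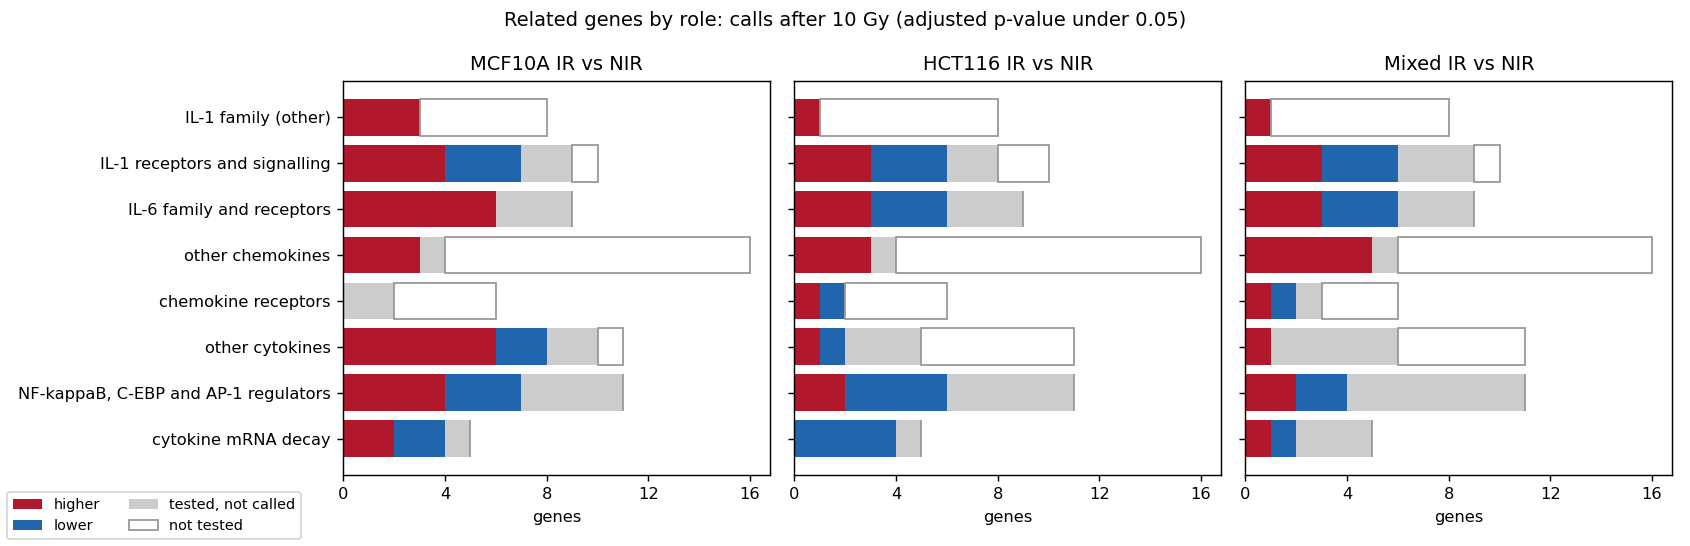
Number of related genes in each of 8 lists that were called higher, called lower, tested but not called, or not tested after 10 Gy, in MCF10A, HCT116 and mixed cultures. In MCF10A no interleukin-6 family gene was called lower, and in HCT116 4 of the 5 regulators of cytokine mRNA decay and stability were.

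The genes whose levels followed 3 of the members most closely over the 18 libraries were found by Pearson's r of log2 CPM among 14121 genes. For IL1B they were CAPN2 (r = 0.996), ACTN1 (0.995) and MICAL2 (0.994), and for IL6 GNG11 (0.981), ANPEP (0.979) and KRBA1 (0.977). IFNGR1 was among the 3 closest to CXCL8 (0.995). These values are mostly set by the gap between MCF10A and the other libraries. Within the 6 MCF10A libraries alone, r was 0.991 for IL1B with CAPN2, 0.978 with ACTN1 and 0.997 with MICAL2. For IL6 it was 0.163 with GNG11, 0.869 with ANPEP and 0.805 with KRBA1. Those 6 libraries are 3 NIR and 3 IR, so r within them also holds the gap between the treatments.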

How the data were processed

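RNA from 18 libraries of 2 human cell lines and their mixture, 3 biological replicates in each of 6 groups, was analysed from the authors' deposited gene tables. The tables hold raw counts per gene symbol, which the authors deposited without normalization, and the submitters' processing notes name fastp, STAR, featureCounts and GRCh38. Their versions, the annotation and the strand setting are not given in the sources used here. Groups were taken from the sample titles. Low counts were mostly even, so fits with halved counts were run as an alternative.

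Each comparison was fitted over all genes with edgeR 4.0.16 in R 4.3.3 (limma 3.58.1): filterByExpr (minimum count 10), TMM factors and a 2-sided quasi-likelihood test, using only the libraries of the groups compared, with Benjamini-Hochberg adjustment over all genes tested and a threshold of 0.05. Standard errors come from the log2 difference and its F statistic, and 95% intervals are 1.96 SE either way. These intervals are approximate and somewhat narrower than the F test implies. CXCL1 in Mixed NIR against HCT116 NIR had an interval of 0.023 to 1.50 with an unadjusted edgeR p of 0.058. The script was tested on simulated data. DESeq2 1.42.0, other scaling, no filter, a replicate block, 1 fit of all 18 libraries, halved counts and leaving out each library were alternatives. Same-numbered libraries were not treated as pairs: in 0 of 15 pairs of groups did all 3 correlations of residuals exceed 0.1. Replicates were not copies, with a chi-squared of 4.77 to 14.0 per gene.

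CPM is counts times 1e+06 over the library total. The MCF10A share of a mixed library was a/(a+b), where a is the median over MCF10A-specific genes (at least 20 CPM in MCF10A and under 1 CPM in every HCT116 library) of mixed CPM over monoculture CPM of the same treatment, and b the same for HCT116-specific genes. Lengths are exon unions of GENCODE 29, and positions and promoter sequences are from RefSeq, with all 10 symbols matched. Folds against a group at 0 used a floor of 3 counts over the group. Named were all 10 members, the 3 called related genes farthest in each direction whose higher group reached 1 CPM, and the 3 genes most like CXCL8, IL6 and IL1B by r (prior count 2, mean at least 1 CPM). Some genes that these rules or the marker lists take in are not reported here. Other related genes were named after their values were seen. The members and lists were chosen with earlier results of these data known.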

Additional observations from a re-analysis of the deposited data

Results flagged for a closer look

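For 2 of the 9 members tested, the response to 10 Gy differed between the lines by the test of the difference itself. Over all 18179 genes tested, 37.3% were called in either direction and 21.9% lower in HCT116, so the count does not set the members apart. CXCL8 had a response lower by 1.32 on the log2 scale in HCT116 (difference -1.32, edgeR, adjusted p = 2.2e-07): it was higher in 3 of 3 irradiated MCF10A libraries than in any unirradiated one, while the HCT116 ranges overlapped. CXCL2 had a difference of -0.86 (edgeR, adjusted p = 0.018), which was -0.45 without HCT116 NIR replicate 2. The level of CXCL2 in HCT116 was under 1.1 CPM in all 6 libraries, so few counts lie behind its HCT116 response (69 in each condition).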

How the results depend on the processing

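The calls of the 10 genes were recomputed with other scaling, DESeq2, no filter, the replicate block, 1 fit of all 18 libraries, halved counts and without each library. Over the single members, 831 of these values kept direction and call, 17 lost the call, 8 gained one and 36 changed sign. With all 18 libraries in 1 fit, 5 members were called in HCT116 IR against NIR, 1 (CXCL8) in Mixed NIR against HCT116 NIR, 1 in the response difference of HCT116 minus MCF10A and 1 (IL1A) in that of Mixed minus HCT116. Of the 18890 genes in that fit, 8976, 768, 6883 and 192 were called in these comparisons, in the same order. DESeq2 also called 1 member in the last of them, where it called 327 of 18072 genes. Leaving out 1 library gave 3 to 5 members in Mixed IR against NIR and 1 to 2 in the response difference of HCT116 minus MCF10A. No value was taken for IL6 without HCT116 NIR replicate 2, which left that group at 0. With other limits for specific genes, 1 member instead of 4 was below its range in Mixed NIR.

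The reversed values belong to members that were not called in either fit. CXCL8 in Mixed IR against HCT116 IR was 0.0050 with library size alone, 0.0047 with all 18 libraries and 0.011 with the replicate block. CCL20 in the response difference of HCT116 minus MCF10A was 0.027 with no filter and 0.027 with all 18 libraries. CXCL2 in that of Mixed minus HCT116 was 0.0049 with library size alone and 0.0089 with the replicate block. Leaving out 1 library at a time, sign changes gave ranges of -0.27 to 0.33 (CXCL2) and -0.078 to 0.28 (CXCL8) in HCT116 IR against NIR, -0.39 to 0.13 (CXCL2) in Mixed IR against NIR, -0.28 to 0.53 (IL1B), -0.35 to 0.27 (CXCL2) and -0.42 to 0.23 (CXCL3) in Mixed NIR against HCT116 NIR, and -0.45 to 0.086 (CXCL2) and -0.13 to 0.23 (CXCL8) in Mixed IR against HCT116 IR. They gave -0.67 to 0.021 (IL1RN), -0.42 to 0.35 (CXCL1) and -0.97 to 0.58 (CCL20) in the response difference of HCT116 minus MCF10A, and -0.46 to 0.21 (CXCL2) in that of Mixed minus HCT116. The replicate block ended no call of a member and added none. Over all genes it moved the calls in Mixed NIR against HCT116 NIR from 335 to 716 and in Mixed IR against HCT116 IR from 1467 to 2220. With all 18 libraries in 1 fit, the share of higher calls moved from 43.6% to 63.8% in the first of these comparisons, from 59.4% to 80.5% in the second, and from 41.3% to 51.8% in the response difference of HCT116 minus MCF10A. The first count was 576 with DESeq2, 671 with no filter, 768 with all 18 libraries, 178 without HCT116 NIR replicate 2 and 145 without Mixed NIR replicate 1, and the second was 866 and 914 without Mixed IR replicate 2 and 3. In the response difference of Mixed minus HCT116, 150 genes were called, against 327 with DESeq2 (61.5% of them higher instead of 82.0%), 336 with no filter and as few as 64 without 1 library. Upper-quartile scaling moved the share of higher calls from 47.4% to 57.5% in MCF10A IR against NIR, and from 51.8% to 62.4% between the unirradiated lines (62.2% with library size alone), where it moved the median of all genes from 0.05 to 0.25 on the log2 scale. Members differed there by far more. The causes of these changes were not tested. Low counts limit IL6, CXCL5 and CCL20 in HCT116 and mixed libraries, where they were under the filter. IL6 and CCL20 entered the response difference of HCT116 minus MCF10A through MCF10A, with wide intervals.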
